A study of Mus musculus with 31 samples.

Results

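CD45.2+ leukocytes from orthotopic AT3-OVA tumours were compared between 2 radiotherapy regimens, 3x4Gy and 1x20Gy, on day 5 after treatment ended. All libraries with those titles were taken, 6 per regimen and 12 of the 31 in the series, and all genes were compared. Of 38406 gene symbols in the count tables, 12021 passed the filter on low counts and were tested. AT3-OVA is a mouse triple negative mammary tumour line that carries ovalbumin, and it grew in the mammary fat pad of wildtype female C57BL/6 mice, whose age is not given in the sources used here. The 3x4Gy group received 3 local fractions of 4 Gy, given a day apart, and the 1x20Gy group a single local dose of 20 Gy. Number of fractions, dose per fraction and total dose all differ between them and cannot be told apart. The groups 3x0Gy and 1x0Gy (4 libraries each) had the matching anaesthesia with ketamine and xylazine but no radiation, and served to show whether a gap already lay between the mocks. Each library is bulk RNA of sorted cells, so fewer cells of a type and less RNA per cell cannot be told apart. The labels number the samples within a group but do not name the animals, so the p-values measure the spread between these samples.

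Radiation damages DNA in tumour cells and in the leukocytes around them, and activates p53, whose targets halt the cell cycle or start cell death. Dying cells and DNA that reaches the cytosol can induce type I interferons, which act on leukocytes through a shared receptor and raise a broad set of antiviral genes. Irradiated tumours also draw in monocytes, which mature into macrophages in the tissue, and tend to hold a larger share of regulatory T cells. How far the size of the fractions changes these responses is the question the direct comparison addresses.

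Between the regimens 3 of 12021 genes passed an adjusted p below 0.05 (edgeR's quasi-likelihood test, two-sided, Benjamini-Hochberg over all tested genes), a share of 0.025%. Upk3a and Fgb rose after 3x4Gy relative to 1x20Gy (0.0166%) and F13a1 fell (0.00832%). Upk3a passed the filter on low counts only through libraries of the 3x4Gy group, as described below. F13a1 encodes the A subunit of coagulation factor XIII, the transglutaminase that cross-links fibrin and that monocytes and some macrophages produce. Fgb encodes the beta chain of fibrinogen, the substrate that thrombin turns into fibrin. Upk3a encodes uroplakin 3A, a membrane protein of urothelium. At an unadjusted p below 0.05 there were 419 genes higher after 3x4Gy (3.49%) and 407 higher after 1x20Gy (3.39%), together 826 (6.87%).

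The promoters of the 3 called genes are shown because these are the only genes that passed the test. They are RefSeq windows on GRCm38.p6, from 250 bases before to 50 after the start site, 5′ to 3′ on the gene's strand. Capitals mark matches, on either strand, to CTGGGAA, the core of the fibrinogen element that STAT3 binds after interleukin 6, and to GAGGAA, a purine-rich core of PU.1 sites in myeloid genes.
F13a1 (chr13:37050195-37050494, minus strand): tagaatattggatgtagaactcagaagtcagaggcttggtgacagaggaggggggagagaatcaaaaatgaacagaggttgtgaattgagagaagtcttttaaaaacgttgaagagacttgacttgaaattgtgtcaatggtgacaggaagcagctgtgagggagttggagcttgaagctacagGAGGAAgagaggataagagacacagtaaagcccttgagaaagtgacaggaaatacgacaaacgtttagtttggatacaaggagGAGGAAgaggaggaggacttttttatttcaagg
Fgb (chr3:83049814-83050113, minus strand): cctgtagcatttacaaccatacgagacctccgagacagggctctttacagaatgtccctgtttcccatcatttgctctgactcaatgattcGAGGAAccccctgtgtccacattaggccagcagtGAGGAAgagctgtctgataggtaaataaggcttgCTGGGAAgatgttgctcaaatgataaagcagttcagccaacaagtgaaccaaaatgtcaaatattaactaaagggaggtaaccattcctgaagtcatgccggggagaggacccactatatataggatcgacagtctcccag
Upk3a (chr15:85016891-85017190, plus strand): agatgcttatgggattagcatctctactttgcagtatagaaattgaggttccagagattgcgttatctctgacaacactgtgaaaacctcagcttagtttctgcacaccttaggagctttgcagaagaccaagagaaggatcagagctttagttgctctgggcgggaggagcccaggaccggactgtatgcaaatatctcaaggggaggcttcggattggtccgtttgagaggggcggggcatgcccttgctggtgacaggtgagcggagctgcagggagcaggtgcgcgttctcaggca
The Fgb window holds CTGGGAA at -91 from the start site and GAGGAA at -159 and -125, and the F13a1 window holds GAGGAA at -66 and 17. The Upk3a window holds neither. Of 32851 mouse promoter windows, 11.1% hold CTGGGAA and 28.3% hold GAGGAA, and a match is a description of the letters, not evidence of a bound site.

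Some properties of the libraries touch the results below. Total gene counts were 4755034 ± 819101 (SD, n = 6) after 3x4Gy and 5011047 ± 470124 (n = 6) after 1x20Gy, and ran from 2652298 to 7541144 in the mocks. Ptprc, which encodes CD45, stood at 1151 ± 467 CPM (the count relative to the library's total after TMM scaling) after 3x4Gy and 893 ± 145 CPM after 1x20Gy, with no library under 378 CPM in any group. Reads outside annotated genes made up 24.1% ± 2.9 and 23.5% ± 4.5 of reads after 3x4Gy and 1x20Gy. Of 5 such library measures, 0 differed between the regimens (exact permutation tests over 6 against 6 libraries, two-sided, raw p from 0.232 to 0.768, adjusted p = 0.768 for each). The 3x4Gy libraries were less alike than the 1x20Gy libraries: 3x4Gy library 1 had a mean correlation with its own group of 0.932, while the 1x20Gy libraries ran from 0.967 to 0.973. Among the mocks, 3x0Gy library 2 was the least like its group (0.921) and had 5.65% of reads outside genes.

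F13a1 (chr13:36867178-37050244, minus strand, GRCm38) ran from 4.13 to 9.03 CPM after 3x4Gy (median 6.66) and from 17.1 to 31.4 CPM after 1x20Gy (median 19.7). The groups did not overlap, which held for 38 of 12021 genes (0.316%), 17 higher after 3x4Gy (0.141%) and 21 higher after 1x20Gy (0.175%). The log2 fold change was -1.77 (SE 0.30, 95% interval -2.40 to -1.14, adjusted p = 0.0401). In the 3x0Gy mocks F13a1 stood at 8.02, 16.4, 15.8 and 16.3 CPM, and in the 1x0Gy mocks at 14.3, 11.7, 41.8 and 12.2 CPM. The mocks thus overlapped, with a log2 difference of -0.48 between them. Against its own mock, F13a1 fell by 1.14 on the log2 scale after 3x4Gy (SE 0.34, adjusted p = 0.0298), and its difference after 1x20Gy was 0.14 (SE 0.31, adjusted p = 0.838). These contrasts share their irradiated libraries with the direct one. The gap between the regimens exceeded that between the mocks by -1.29 (SE 0.46), which did not pass the test of the difference (adjusted p = 0.772). The call was kept with 3 of 20 libraries left out in turn (3x4Gy 6, 1x0Gy 1 or 1x0Gy 3) and ended with each of the other 17, at adjusted p up to 0.191, while the log2 fold change stayed between -1.88 and -1.62.

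Fgb (chr3:83040141-83049863, minus strand) showed a different pattern. Its levels after 3x4Gy were 18.6, 37.9 and 19.0 CPM in libraries 1, 2 and 3, and 2.95, 1.38 and 3.05 CPM in libraries 4, 5 and 6. After 1x20Gy no library exceeded 1.69 CPM and the median was 0.686 CPM. The groups overlapped at their edge, since 3x4Gy library 5 lay below the highest 1x20Gy library. The log2 fold change was 4.16 (SE 0.73, 95% interval 2.64 to 5.67, adjusted p = 0.0401), and the mocks differed by 1.06 (3x0Gy 1.39, 11.2, 4.28 and 5.43 CPM, 1x0Gy 2.42, 1.92, 2.13 and 4.12 CPM). The gamma chain gene Fgg, picked after its values were seen, was on the same side, with a 95% interval of 0.86 to 3.54 (adjusted p = 0.507) and 1.43 between the mocks. The call of Fgb was kept without 3x4Gy library 4, 5 or 6 or 1x0Gy library 1, and ended without each of the other 16 libraries.

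Upk3a (chr15:85017141-85022547, plus strand) averaged under 5 CPM over the 12 libraries, outside the rule for named genes, and is given because it was 1 of only 3 calls. Its raw counts after 3x4Gy were 59, 135, 49, 14, 1 and 5 in libraries 1 to 6, and 0 to 2 in the 1x20Gy libraries. Upk3a was thus most abundant in the 3 libraries with the most Fgb. The log2 fold change was 4.80 (SE 0.84, 95% interval 3.06 to 6.54, adjusted p = 0.0401), with 1.12 between the mocks, whose raw counts were 4, 2, 2 and 8 (3x0Gy) and 1, 3, 0 and 6 (1x0Gy). The gene passed the filter on low counts only through 3x4Gy libraries 1 to 4, and without any 1 of them it no longer passed. Its entry into the test thus rested on the group where it was high, so its call is not independent support for a difference. It kept its call without 3x4Gy library 5 or 6 or 1x0Gy library 1, and lost it without each of the other 13.

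**Figure D1:**
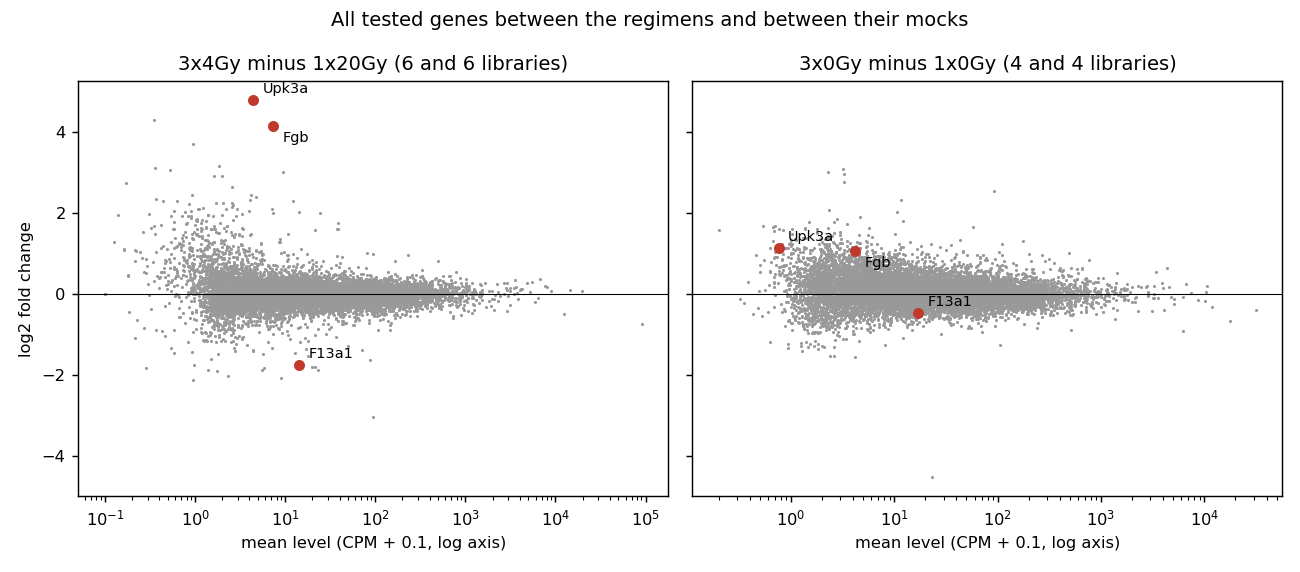
Log2 fold change of each tested gene (y axis) against its mean level in CPM on a log axis (x axis), for 3x4Gy minus 1x20Gy (left, 6 and 6 libraries) and 3x0Gy minus 1x0Gy (right, 4 and 4 libraries), with the 3 called genes in red. Most genes lie near 0 in both panels, and Upk3a, Fgb and F13a1 at 4.80, 4.16 and -1.77 on the left lie at 1.12, 1.06 and -0.48 on the right.

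The 10 genes with the smallest p in each direction, among those averaging 5 CPM or more, are given next, called or not. Where contrasts with the mocks are given for them, these share their irradiated libraries with the direct comparison that picked the genes. The difference between the regimens' gap and the mocks' gap passed the test for 0 genes (smallest adjusted p = 0.222). Among those lower after 3x4Gy, several are known from monocytes and alternatively activated macrophages, although apart from F13a1 0 of them passed the test, and the gene lists for these cells had medians near 0 (-0.04 for monocytes and -0.06 for alternatively activated and suppressive macrophage genes, with 4 of 12 members above 0). Retnla encodes RELM alpha, a secreted protein induced by interleukin 4 and 13. It ran from 8.52 to 54.3 CPM after 3x4Gy (median 11.8) and from 54.5 to 290 CPM after 1x20Gy (median 167). The highest 3x4Gy library thus nearly touched the lowest 1x20Gy library. The log2 fold change was -3.05 (SE 0.63, 95% interval -4.35 to -1.75, adjusted p = 0.149). The mocks spread widely, at 37.0, 221, 232 and 200 CPM (3x0Gy) and 32.4, 185, 671 and 361 CPM (1x0Gy), a log2 difference of -0.85. Against 3x0Gy, Retnla fell by 3.08 (SE 0.66, adjusted p = 0.00353), and against 1x0Gy its difference after 1x20Gy was -0.88 (SE 0.62, adjusted p = 0.431).

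Fn1, fibronectin, a matrix protein that monocytes and macrophages also make, ran from 23.5 to 83.6 CPM after 3x4Gy (median 38.6) and from 90.5 to 221 CPM after 1x20Gy (median 111). The groups did not overlap, and the log2 fold change was -1.64 (SE 0.39, adjusted p = 0.27), beside -0.64 between the mocks. Ear2, an eosinophil-associated ribonuclease found in monocytes and macrophages, stood at -1.81 (SE 0.43, adjusted p = 0.284), with 2.76 to 19.5 CPM after 3x4Gy and 17.2 to 39.9 CPM after 1x20Gy. Cbr2, a carbonyl reductase, stood at -1.83 (SE 0.44, adjusted p = 0.284). Pid1, an adaptor that dampens insulin signalling, ran from 29.7 to 59.6 CPM after 3x4Gy and from 57.3 to 94.5 CPM after 1x20Gy, at -0.77 (SE 0.15, adjusted p = 0.144). For Pid1 the mocks lay together, between 28.3 and 30.7 CPM (3x0Gy) and between 29.7 and 40.8 CPM (1x0Gy). It rose by 0.98 after 1x20Gy against 1x0Gy (SE 0.18, adjusted p = 0.00124). After 3x4Gy, library 2 lay within the 3x0Gy range of Pid1 and the other libraries lay above it. Thbs1 (thrombospondin 1, an activator of latent TGF-beta), Rraga (a GTPase that signals amino acids to mTORC1), Gramd1b (a sterol transporter) and St3gal5 (the GM3 ganglioside synthase) completed this side, at -0.71, -0.78, -0.49 and -1.02 with adjusted p from 0.346 to 0.408. Only Gramd1b of these 4 had groups that did not overlap.

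On the other side, Cited1, a transcriptional co-regulator, had 14.5, 45.5, 28.5, 5.61, 2.29 and 3.27 CPM in 3x4Gy libraries 1 to 6 and at most 3.57 CPM after 1x20Gy. The groups overlapped, since 3x4Gy libraries 5 and 6 lay below the highest 1x20Gy library. The log2 fold change was 3.03 (SE 0.58, adjusted p = 0.0871), beside 1.10 between the mocks. Mock levels ran from 4.21 to 8.06 CPM in 1x0Gy, with every 3x0Gy library higher and the highest at 18.5 CPM. Clu, clusterin, a secreted chaperone, had 26.8, 54.6 and 22.5 CPM in libraries 1, 2 and 3, less in the other 3, and 0.261 to 11.6 CPM after 1x20Gy (log2 difference 2.31, SE 0.64, adjusted p = 0.437). Among the 3x4Gy libraries both were highest in 1, 2 and 3, as Fgb and Upk3a were, while 3x0Gy library 1 had more Cited1 than 3x4Gy library 1.

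Bst2, Stat2 and Oas2 are interferon-induced genes: tetherin, which holds budding viruses at the cell surface, a subunit of the interferon-activated transcription complex, and an oligoadenylate synthetase. Bst2 ran from 139 to 343 CPM after 3x4Gy (median 191) and from 83.0 to 143 CPM after 1x20Gy (median 125), and the groups overlapped by 1 library at the edge. Its log2 fold change was 0.81 (SE 0.18, adjusted p = 0.27). The mocks stood at 182, 227, 195 and 180 CPM (3x0Gy) and 284, 217, 190 and 280 CPM (1x0Gy). The 1x20Gy group thus had the lowest mean. Bst2 fell by 1.01 after 1x20Gy against 1x0Gy (SE 0.20, adjusted p = 0.00273). Its difference after 3x4Gy against 3x0Gy was 0.10 (SE 0.21, adjusted p = 0.773). These contrasts share their irradiated libraries with the direct one, by which the gene was picked. Oas2 was similar, at 0.48 between the regimens (SE 0.13, adjusted p = 0.408), and it fell by 0.54 after 1x20Gy against its mock (SE 0.14, adjusted p = 0.0157). In that contrast 1028 of all 12021 genes were called (8.55%). Of the 28 tested genes of the type I interferon list, Bst2 and Oas2 were the 2 called lower in it, and the list's median was -0.07. After 3x4Gy against 3x0Gy 1 of the 28 was called lower, where 12.3% of all genes were called, and the median was 0.07. Stat2 differed by 0.48 (SE 0.12, adjusted p = 0.346), with 77.7 to 115 CPM after 3x4Gy and 52.4 to 80.7 CPM after 1x20Gy. Cdk16 (a cyclin Y-dependent kinase, 0.60, adjusted p = 0.408), Grasp (a scaffold for receptor trafficking, 0.48, adjusted p = 0.408), Clip2 (a microtubule linker, 0.69, adjusted p = 0.492) and Glcci1 (a glucocorticoid-induced transcript, 0.58, adjusted p = 0.507) completed the list, and of these only Cdk16 and Grasp had groups that did not overlap.

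**Figure D2:**
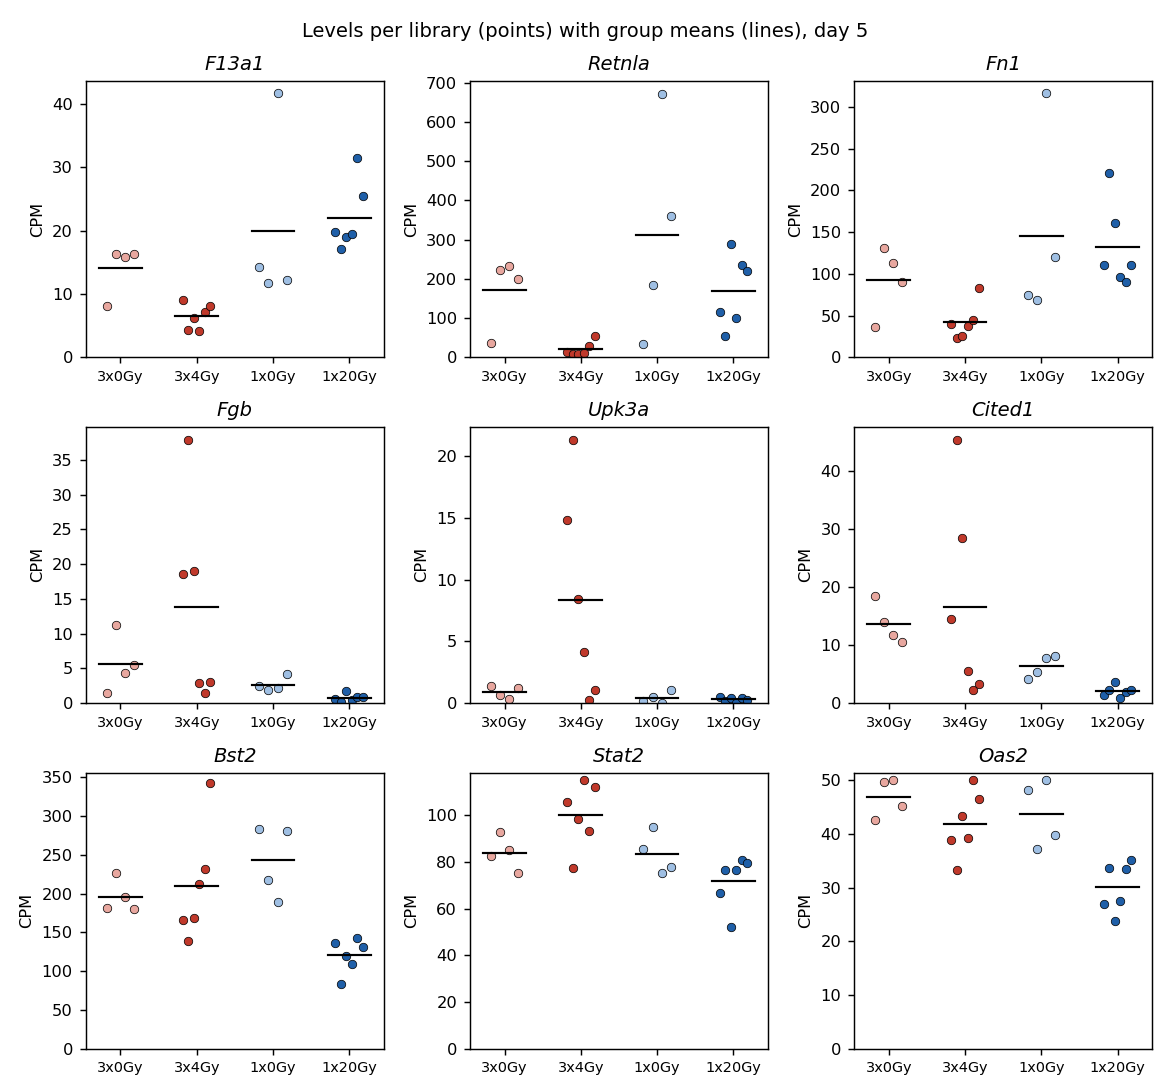
Levels in CPM (y axes, each from 0) of 9 genes in each day 5 library (points) with group means (lines), for both mocks and both regimens. F13a1, Retnla and Fn1 (top row) lie lower in every 3x4Gy library than in every 1x20Gy library, the 3 highest Fgb points are 3x4Gy libraries, and Bst2 and Oas2 have their lowest group mean after 1x20Gy.

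A panel of 39 marker genes was described whether called or not. Of these, 37 had enough counts to be tested, 0 were called, and 27 had a 95% interval within 2-fold either way, a property of 9993 of all 12021 genes (83.1%). Cdkn1a, the p53 target p21 that halts the cell cycle, ran from 630 to 1030 CPM after 3x4Gy and from 624 to 1011 CPM after 1x20Gy. Every irradiated library lay above every mock, whose highest was 433 CPM. The log2 difference between the regimens was 0.12 (95% interval -0.21 to 0.46). Inhba, the subunit of activin A, differed by 0.05 (-0.63 to 0.73) and F10, coagulation factor X, by 0.07 (-0.57 to 0.70). Both genes rose against their mocks under either regimen. F10 rose by 3.13 (SE 0.43, adjusted p = 5.11e-05) after 3x4Gy and 2.51 (SE 0.39, adjusted p = 0.000368) after 1x20Gy. Inhba rose by 3.36 (SE 0.49, adjusted p = 0.000116) and 2.93 (SE 0.45, adjusted p = 0.000285).

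Lymphocyte genes of the panel had wide intervals. Foxp3, which defines regulatory T cells, ran from 8.27 to 37.4 CPM after 3x4Gy and from 13.0 to 33.2 CPM after 1x20Gy, a log2 difference of 0.11 (95% interval -0.62 to 0.84). Ctla4, an inhibitory receptor of regulatory and activated T cells, ran from 65.4 to 215 CPM and from 89.5 to 348 CPM (-0.60, -1.33 to 0.13). Cd8a differed by -0.11 (-0.86 to 0.64) and Ifng, interferon gamma, by -0.05 (-0.80 to 0.69). Cd274, the checkpoint ligand PD-L1, differed by -0.02 (-0.55 to 0.52). For these genes differences of more than 2-fold lie outside the interval, except for lower Ctla4, while smaller ones remain within it. Prf1, perforin of cytotoxic lymphocytes, ran from 1.55 to 22.1 CPM after 3x4Gy and from 2.44 to 5.27 CPM after 1x20Gy, a difference of 0.99 with an interval of -0.31 to 2.29.

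Of the 37 tested panel genes, Tgfb1, Chac1, Mrc1, Bax, Irf7 and Ncr1 had intervals that did not include 0, and 0 of these 6 passed after adjustment. Among all genes 826 of 12021 had an unadjusted p below 0.05 (6.87%). Ncr1, an activating receptor of NK cells, differed by 0.74 (0.02 to 1.46), less than the 1.46 between its mocks, and Bax, a p53 target that starts cell death, by 0.38 (0.02 to 0.74), with the mocks the other way at -0.53. Tgfb1, the ligand TGF-beta 1, ran from 31.6 to 72.5 CPM after 3x4Gy and from 30.8 to 42.5 CPM after 1x20Gy (log2 fold change 0.56, SE 0.17, adjusted p = 0.507). Its mocks stood at 36.6, 58.9, 67.3 and 56.1 CPM (3x0Gy) and 73.1, 75.1, 64.0 and 69.5 CPM (1x0Gy). After 1x20Gy it fell by 0.96 against 1x0Gy (SE 0.18, adjusted p = 0.00174), a contrast in which 1028 of 12021 genes were called (8.55%). The 3x4Gy group differed from its mock by -0.05 (SE 0.18, adjusted p = 0.893). Both contrasts share their irradiated libraries with the direct one, and the lowest 3x0Gy library lay inside the 1x20Gy range. Chac1, a glutathione-degrading enzyme of the stress response, was 5.32 to 11.5 CPM after 3x4Gy and 8.08 to 24.2 CPM after 1x20Gy (-0.78, 95% interval -1.39 to -0.17, adjusted p = 0.601). Mrc1, the mannose receptor of macrophages, was 26.8 to 77.2 CPM and 61.6 to 82.2 CPM (-0.67, -1.18 to -0.16, adjusted p = 0.577). S100a8, a calprotectin subunit of neutrophils and monocytes, spread from 3.00 to 87.9 CPM and from 13.3 to 321 CPM, and its difference of -1.38 had an interval from -2.98 to 0.22.

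**Figure D3:**
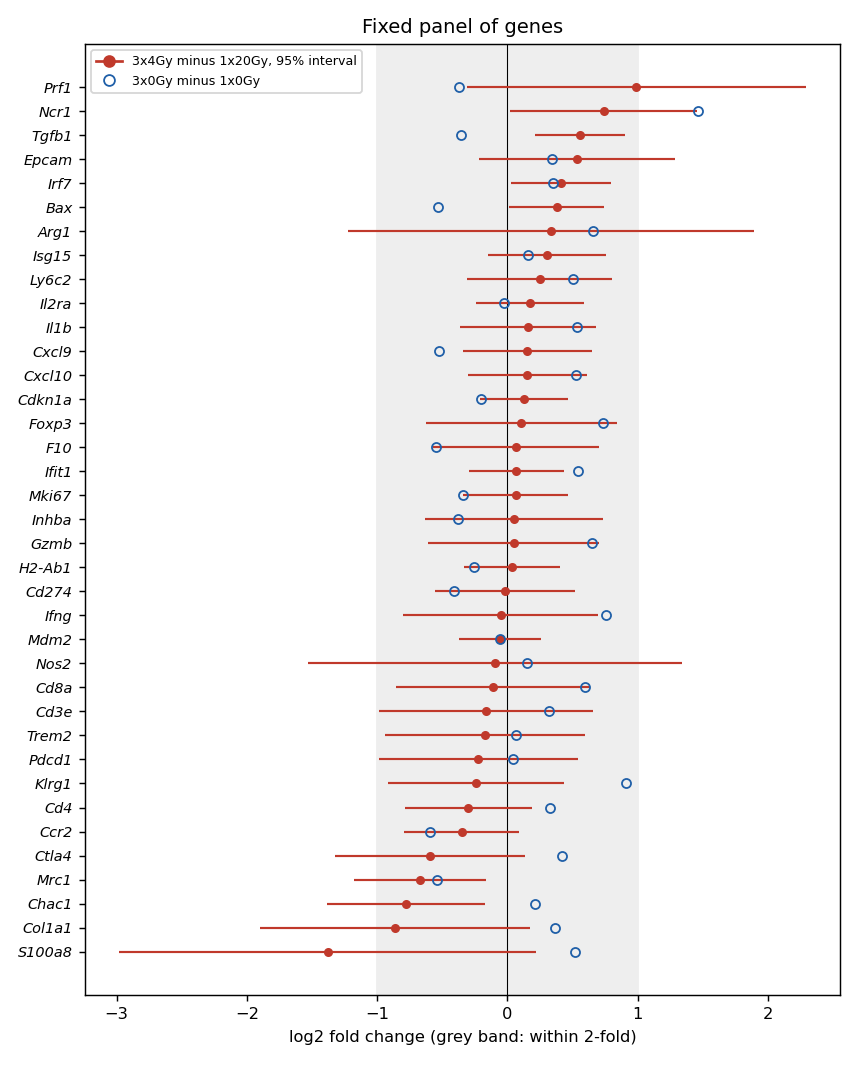
Log2 fold change (x axis) of the 37 tested panel genes (rows), 3x4Gy minus 1x20Gy with its 95% interval (red) and 3x0Gy minus 1x0Gy (blue circles), with the range within 2-fold in grey. The intervals of 27 genes lie inside the grey band, and those of S100a8, Arg1, Nos2 and Prf1 are among the widest.

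The 45 gene lists (cell types, pathways and complexes) had 643 tested entries, in which F13a1 was the only called gene, in the lists of monocytes and of coagulation. Lists are described here by counts and medians, beside a median log2 fold change of 0.00 over all genes, 50.9% of them above 0. Genes of a list share their cells and their regulators and are not independent. Members named from here on were in part chosen after their values were seen.

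The type I interferon response list had 26 of 28 tested members above 0, 11 of them with an unadjusted p below 0.05 and 0 called, where that share was 3.49% among all genes. Its median log2 fold change was 0.31, and 0.14 between the mocks. Besides Bst2, Stat2 and Oas2, members with the smallest p were Usp18 (0.53), which removes ISG15 from proteins, Rtp4 (0.45), Ifi44 (0.46), Oasl1 (0.49) and Xaf1 (0.51), with adjusted p from 0.521 to 0.625. Isg15, the ubiquitin-like protein itself, ran from 280 to 886 CPM after 3x4Gy and from 378 to 611 CPM after 1x20Gy (log2 fold change 0.31, 95% interval -0.15 to 0.76). The 95% intervals of 25 of the 28 lay within 2-fold. By group mean CPM, 17 members lay above their own mock after 3x4Gy and 17 below it after 1x20Gy. The summed level of the list was 2993, 2613, 3367, 4289, 3912 and 4550 CPM in 3x4Gy libraries 1 to 6, and 2400 to 3433 CPM after 1x20Gy (median 2892). The mocks lay at 3534, 3623, 2988 and 3287 CPM (3x0Gy) and at 2878, 3109, 3017 and 3150 CPM (1x0Gy). Only 3x4Gy libraries 4, 5 and 6 exceeded every other day 5 library. These same 3 had the lowest epithelial sums of their group, 337, 311 and 245 CPM. They also had its highest macrophage sums (10558, 11724 and 9554 CPM) and its lowest T cell sums (774, 949 and 854 CPM). Whether the interferon sums go with any of these was not tested. With epithelial and fibroblast levels as a covariate the median of the interferon list was 0.39, and with 1 of the 12 irradiated libraries left out at a time, or under 3 other scalings, it stayed between 0.25 and 0.39.

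Of 22 tested members of the interferon gamma list, 16 lay above 0, with a median of 0.20, and 0.08 between the mocks. An unadjusted p below 0.05 held for 6, all higher after 3x4Gy, where that share was 3.49% among all genes. Cxcl11, a chemokine for CXCR3-bearing lymphocytes, stood at 0.90 (SE 0.30, adjusted p = 0.568), the guanylate-binding protein Gbp5 at 0.67 (SE 0.24) and the peptide transporter Tap1 at 0.34 (SE 0.12). Cxcl9 and Cxcl10, its best known chemokines, each stood at 0.15 with intervals that include 0. The list of plasmacytoid dendritic cells, which produce interferon, had 9 of 10 members above 0 and a median of 0.33. Its summed level did not overlap between the regimens, at 824 to 1047 CPM after 3x4Gy and 622 to 753 CPM after 1x20Gy, and every mock lay between 858 and 1010 CPM, above the 1x20Gy libraries. Its members with the smallest p, Bst2 and Irf7, are also interferon-induced and make up a large part of that sum. In 3x4Gy library 6 they stood at 343 and 330 CPM of a sum of 904 CPM. In 1x20Gy library 4, the highest sum of its group, they stood at 110 and 215 CPM of 753 CPM. The gap in the sum thus cannot be assigned to plasmacytoid dendritic cells. Bst2 ran from 139 to 343 CPM after 3x4Gy and from 83.0 to 143 CPM after 1x20Gy. For Irf7 the ranges were 278 to 447 CPM and 197 to 344 CPM. Siglech, the marker most specific to these cells on the list, stood at 0.12 (95% interval -1.50 to 1.73). With epithelial and fibroblast levels as a covariate the list's median was 0.00.

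**Figure D4:**
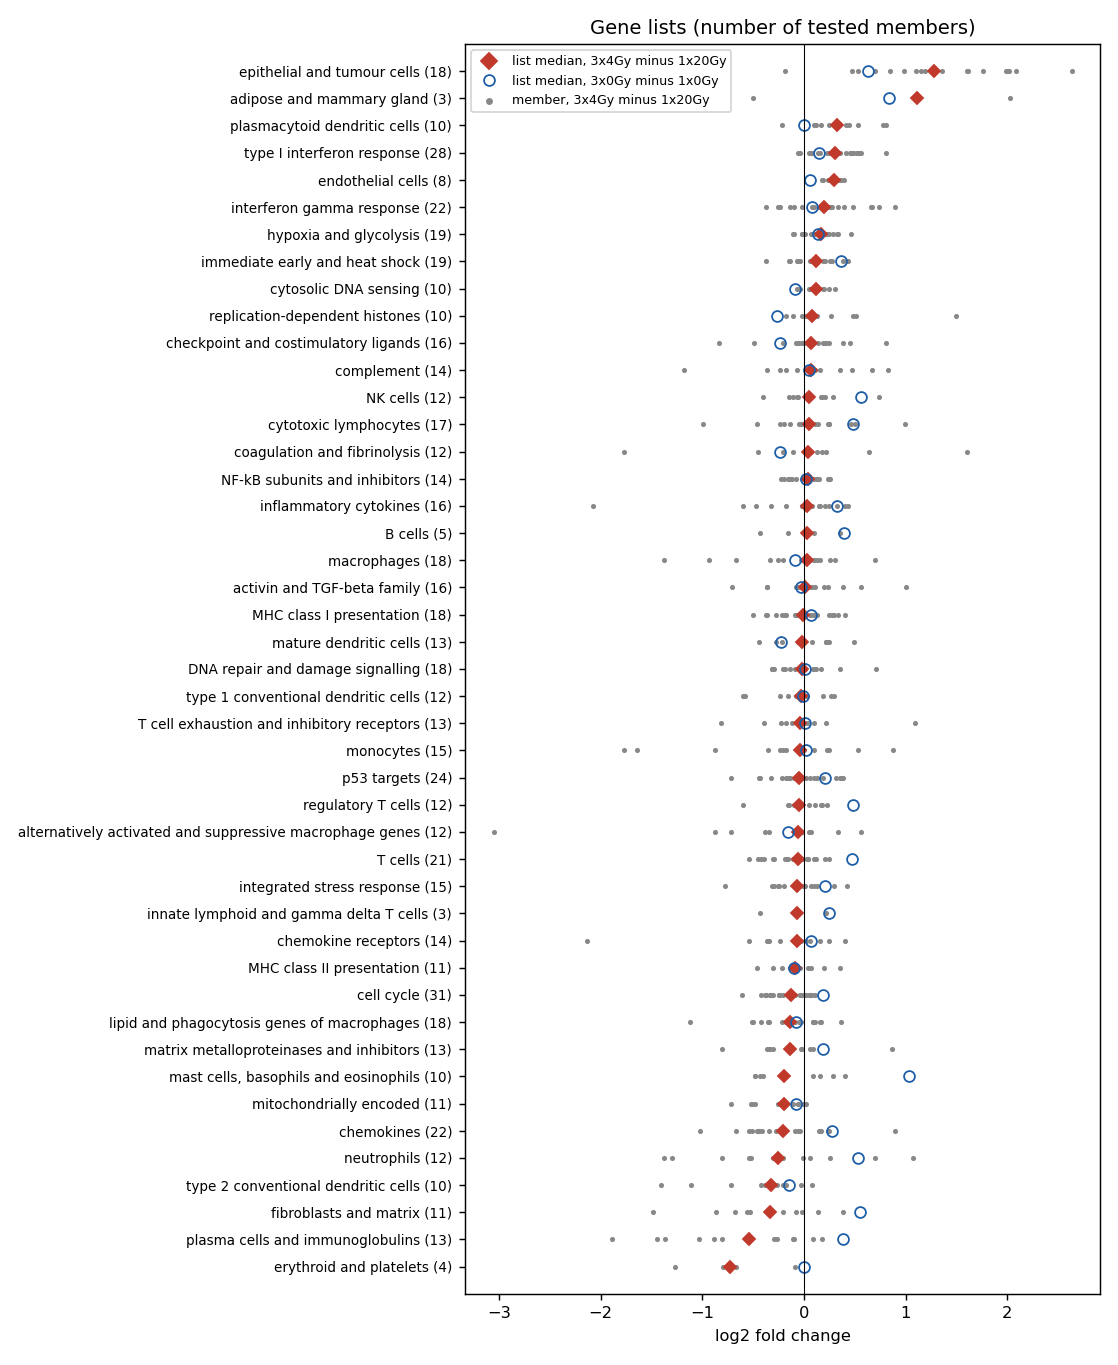
Log2 fold change (x axis) of the tested members of each of 45 gene lists (rows, with the number of members), 3x4Gy minus 1x20Gy (grey points, red diamonds for medians), and the medians for 3x0Gy minus 1x0Gy (blue circles). Most medians lie near 0, and the epithelial list lies at 1.28 with 0.63 between the mocks.

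Markers of cells that the CD45.2+ sort should leave out were also measured. The list of epithelial and tumour genes had 17 of 18 members above 0, with a median of 1.28, and 0 were called. An unadjusted p below 0.05 held for 10, all higher after 3x4Gy, where that share was 3.49% among all genes. Cldn7, a tight junction protein, stood at 2.63 (SE 0.61, adjusted p = 0.27), and the keratins Krt7, Krt19, Krt18 and Krt8, filaments of epithelial cells, at 2.09, 2.02, 1.62 and 1.60. Epcam, an epithelial adhesion molecule, differed by 0.53 (95% interval -0.22 to 1.28), with 46.9, 70.4 and 45.4 CPM in 3x4Gy libraries 1 to 3 and no more than 21.3 CPM in libraries 4 to 6. The summed level was 1068, 1269, 698, 337, 311 and 245 CPM in those libraries and 275, 251, 795, 341, 388 and 361 CPM after 1x20Gy. The mocks stood at 2112, 983, 983 and 1242 CPM (3x0Gy) and 622, 809, 1041 and 823 CPM (1x0Gy), with a median difference of 0.63. The 3 highest 3x4Gy libraries were those with the most Fgb, Upk3a, Cited1 and Clu. With epithelial and fibroblast levels as a covariate, Fgb stood at 3.13 (SE 0.63, adjusted p = 0.174), Upk3a 3.53 (SE 0.67, adjusted p = 0.14) and F13a1 -1.85 (SE 0.32, adjusted p = 0.111). Without 3x4Gy library 2 the list's median was 0.96.

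Other outside markers differed in direction. The fibroblast and matrix list had 2 of 11 members above 0 and a median of -0.33, with summed levels of 77 to 172 CPM after 3x4Gy, 92 to 187 CPM after 1x20Gy and 184 to 776 CPM in the mocks. All 4 tested erythroid and platelet genes lay below 0 (median -0.73), with Hba-a2, an alpha globin, at -0.79 (SE 0.31, adjusted p = 0.629). All 8 tested endothelial genes lay above 0 (median 0.30, with 0 at an unadjusted p below 0.05). Their summed levels, 150 to 239 CPM after 3x4Gy and 132 to 197 CPM after 1x20Gy, exceeded those of every mock (79 to 129 CPM), while Cldn5 of that list was at 0 in every irradiated library. Of 3 tested adipose and mammary genes 2 lay above 0 (median 1.11), the caseins Csn1s1 at 2.03 (SE 0.80, adjusted p = 0.63) and Csn2 at 1.11, beside a list median of 0.84 between the mocks. Summed levels of that list were at most 4.74 CPM in the irradiated libraries, and its members Plin1, Lep and Wap were at 0 there. Ly6g, Vsig4 and Epx, of the neutrophil, macrophage and eosinophil lists, were also at 0 in those libraries. A count of 0 allows a level of up to 0.472 CPM in the deepest and 0.884 CPM in the shallowest of them, for counting error only.

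**Figure D5:**
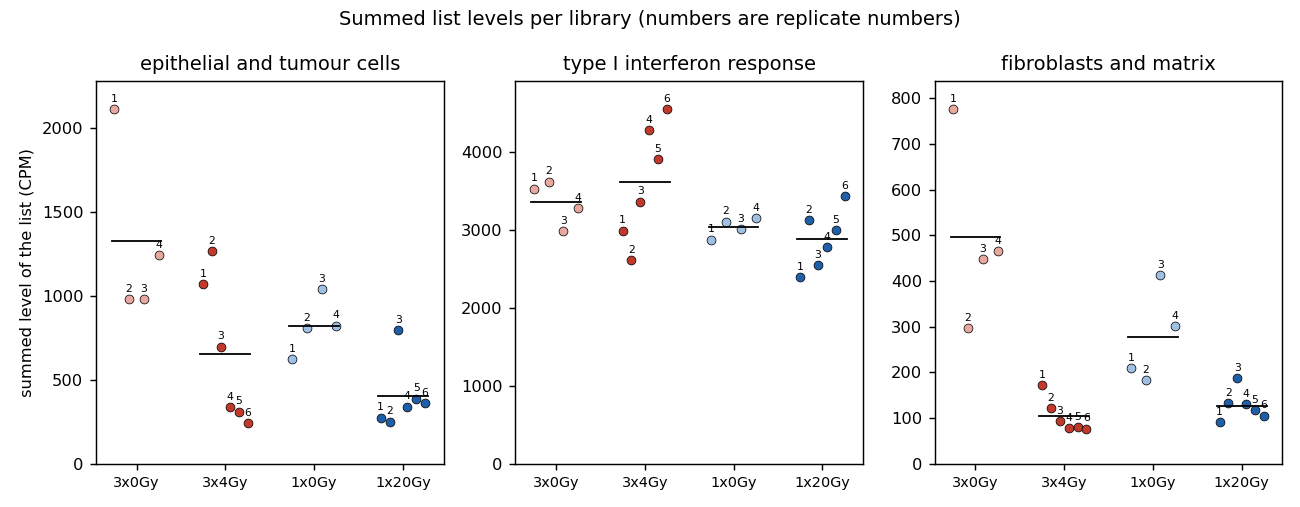
Summed level in CPM (y axes, each from 0) of the epithelial, type I interferon and fibroblast lists in each day 5 library, with replicate numbers beside the points and lines at group means. 3x4Gy libraries 1, 2 and 3 have the highest epithelial sums of their group (1068, 1269 and 698 CPM), and libraries 4, 5 and 6 the highest interferon sums (4289, 3912 and 4550 CPM).

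Myeloid lists were mixed. Of 12 neutrophil genes 4 lay above 0 (median -0.26), and the mocks' median was 0.53. The neutrophil sums were 523 to 684 CPM after 3x4Gy, 473 to 1079 CPM after 1x20Gy and 280.2 to 525.7 CPM in the mocks. The list of mast cells, basophils and eosinophils had 4 of 10 above 0 and a median of -0.19, with 1.03 between the mocks. Of 15 monocyte genes 5 lay above 0 (median -0.04), with F13a1 and Fn1 lowest and Ccr2, the receptor that brings monocytes into tissue, at -0.35 (95% interval -0.79 to 0.09). The macrophage list had a median of 0.03, with Folr2, a folate receptor of resident macrophages, at -1.38 (SE 0.45, adjusted p = 0.522) and Siglec1, a sialic acid receptor that interferon induces, at 0.70 (SE 0.28, adjusted p = 0.63). The complement components C1qa and C1qc differed by 0.15 and 0.03. Type 2 conventional dendritic cells had 1 of 10 members above 0 and 3 with an unadjusted p below 0.05 on the lower side, where that share was 3.39% among all genes (median -0.32). These were the lectins Clec10a (-0.72), Cd209d (-1.41) and Cd209a (-1.11). Type 1 conventional and mature dendritic cells had medians of -0.03 and -0.02.

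Lists of lymphocytes and of the response to damage lay near 0. The medians were -0.06 for T cells (7 of 21 above 0), -0.05 for regulatory T cells (5 of 12), 0.05 for NK cells, 0.05 for cytotoxic lymphocytes, -0.05 for p53 targets and -0.02 for DNA repair. In the T cell and regulatory T cell lists 0 members had an unadjusted p below 0.05. Between the mocks their medians were 0.47 and 0.48. Of 24 p53 targets, 22 had intervals within 2-fold. The cell cycle list had a median of -0.13, with 0.18 between the mocks, and 9 of 31 above 0. Of its members 5 had an unadjusted p below 0.05, all lower after 3x4Gy, where that share was 3.39% among all genes. Ube2c, a mitotic ubiquitin-conjugating enzyme, stood at -0.61 (SE 0.17, adjusted p = 0.437). Mki67, the proliferation marker Ki-67, differed by 0.06 (95% interval -0.34 to 0.47).

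Of 13 immunoglobulin and plasma cell genes 2 lay above 0 (median -0.54), with Ighg2c at -1.89 (SE 0.70, adjusted p = 0.587) and Igkc, the kappa constant region, at -1.36 (SE 0.58, adjusted p = 0.67). The mocks lay the other way, with a median of 0.38, and reads of the immunoglobulin constant genes can be split between near-identical copies. Summed levels were 316 to 761 CPM after 3x4Gy and 631 to 940 CPM after 1x20Gy. Of 11 mitochondrially encoded genes 1 lay above 0 and 5 had an unadjusted p below 0.05 on the lower side, where that share was 3.39% among all genes. The lowest was mt-Co3, a cytochrome oxidase subunit, at -0.72 (SE 0.24, adjusted p = 0.547). The median of these genes was -0.20, and -0.08 between the mocks. Their summed levels of 3981 to 6077 CPM and 5145 to 6644 CPM overlapped.

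Between the mocks 0 of 12021 genes were called and 667 had an unadjusted p below 0.05 (5.55%). The difference between the regimens' gap and the mocks' gap was called for 0 genes, with 714 at an unadjusted p below 0.05 (5.94%) and a smallest adjusted p of 0.222. DESeq2 called 2 genes between the mocks and 1 for the difference of gaps, and limma voom 0 and 0. Against their own mocks, 1477 genes were called after 3x4Gy (12.3%) and 1028 after 1x20Gy (8.55%). At the depth and spread of these libraries, the median SE of the direct comparison was 0.17 for the 9397 genes averaging 5 CPM or more, and 94.8% of them had an interval within 2-fold. Among the 2624 genes under 5 CPM, 41.2% did.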

How the data were processed

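Bulk RNA-seq of sorted CD45.2+ cells was analysed in 20 day 5 libraries, and the day 13 libraries were not used here. The values are gene counts that the authors deposited, 1 table per library with 38406 symbols and 5 summary lines, which stayed out of library sizes and tests. The tools that the submitters' processing notes give are HTSeq 0.9.1, HISAT2 2.0.4, cutadapt 1.5 and bcl2fastq 2.20.0.422, with GRCm38 and mm10 as builds, and the annotation and the strand setting are not given in the sources used here. Without the strand setting, reads of overlapping or antisense genes cannot be told apart.

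Counts were fitted with edgeR 4.0.16 in R 4.3.3 by its quasi-likelihood method after TMM scaling, with 20 libraries in 1 fit of 4 groups. Genes had to pass filterByExpr (min.count 10, min.total.count 15). A call needed a p, adjusted by Benjamini and Hochberg's method, under 0.05. The SE is the absolute log2 fold change divided by the square root of F. Gene positions are from GENCODE M21. Pairs of libraries within a group differed by more than counting error (chi-square per degree of freedom from 4.64 to 62.7). The scripts were tested on simulated data.

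Named genes were those called at 5 CPM or more on average and a fixed panel. Since few were called, the 10 smallest p in each direction were added. Each list gave up to 4 called members or, where none was called, its 2 tested members with the highest mean CPM. Further list members were in part chosen after their values were seen. The 45 lists hold 732 entries, of which 721 matched by symbol, 8 by an older symbol and 3 not at all. The groups, panel and lists were chosen with earlier results of these data known. Alternatives were DESeq2 1.42.0, limma voom (limma 3.58.1), other scalings and filters, a replicate block, covariates and leaving out libraries.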

Additional observations from a re-analysis of the deposited data

Results flagged for a closer look

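For 58 named genes and 4 library measures, the 4 day 5 groups were searched for a library far from the others of its group. Of 248 group checks, 13 found one. Chance alone gives about 1 in 20, so the number found is close to what chance gives. The values below describe single libraries and are not evidence that a library is unusual. Gene values here are log2 CPM.

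F13a1 stood at 3.07 in 3x0Gy library 1, the lowest of its group (next 4.01), and at 5.40 in 1x0Gy library 3, the highest (next 3.88). Retnla stood at 5.22 in 3x0Gy library 1 (next 7.64). So for both genes the same 3x0Gy library was the low one, and in the report's CPM values 1x0Gy library 3 was the highest of its group for both.

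In the 1x20Gy group, library 2 was apart for 4 genes. It was low for Grasp (7.28, next 7.77) and Rraga (6.94, next 7.55) and high for Ifng (5.04, next 3.83) and Arg1 (6.02, next 2.45), the arginase of suppressive myeloid cells. Library 3 of that group was low for Cdk16 (3.76, next 4.19).

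In the 3x4Gy group, library 6 was high for Arg1 (6.06, next 3.61) and library 1 for Mki67 (8.50, next 7.65). Arg1 thus had 1 library far above the rest in each regimen. In the 3x0Gy group, library 2 was high for Irf7 (8.82, next 8.16) and for Il1b, interleukin 1 beta (13.1, next 11.3). The total count of 1x0Gy library 1 was 7541144, above the next of 5850310.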

How the results depend on the processing

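Counts are given as genes higher after 3x4Gy, higher after 1x20Gy, called between the mocks and called for the difference of gaps, which were 2, 1, 0 and 0 in the report. They were 8, 6, 2 and 1 with DESeq2, and 0, 0, 0 and 0 with limma voom, at an adjusted p below 0.01, and with a covariate for epithelial and fibroblast levels or for reads outside genes. RLE and upper quartile scaling and a filter of 1 CPM in 6 libraries gave 2, 1, 0 and 0, library size scaling 3, 1, 0 and 0, and no filter 3, 2, 1 and 1. With only the groups compared in the fit they were 0, 1 and 0, and the difference of gaps could not be fitted. In that fit F13a1 was the gene called, while Fgb and Upk3a did not pass the filter on low counts and were not tested. The replicate block gave 1, 3, 0 and 0. Replicate numbers did not pair the samples: for 3x4Gy and 1x20Gy same-numbered libraries correlated between -0.13 and 0.191 and 0 of 6 best with their own number, and for the mocks between -0.431 and 0.236 and 1 of 4. Leaving out 1 library at a time gave 0 to 4, 0 to 2, 0 to 1 and 0 to 1. Leaving out both 3x4Gy library 1 and 3x0Gy library 2, an alternative chosen after seeing the data, gave 0, 0, 0 and 2. The cause of these shifts was not tested.

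None of the called genes changed sign. F13a1 kept its call in 11 of 33 alternatives, Fgb in 10 of 32 and Upk3a in 10 of 28. Over their alternatives, the log2 fold changes ran from -1.88 to -1.62, from 3.13 to 4.63 and from 3.53 to 5.08, with adjusted p up to 0.191, 0.725 and 0.725. Of 4221 values of the 128 uncalled named genes, 18 passed the test, for 8 genes (Cited1, Bst2, Stat2, Pid1, Retnla, Fn1, Cbr2 and Ear2), 30 moved by more than the spread and 4173 did neither. Low counts limit the genes under 5 CPM most.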
